A study of Mus musculus with 6 samples.

Results

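The HoxB genes Hoxb5, Hoxb6, Hoxb7, Hoxb8 and Hoxb9 were followed in the transcriptome of the mouse mesonephros. They were chosen by symbol, and all 5 were found among the 14366 genes with deposited values. RNA-seq had been carried out on 6 libraries from mesonephroi of male embryos at embryonic day 16.5. The 3 control libraries carried the Osr2-Cre driver and 1 floxed Gata2 allele (Osr2Cre+;Gata2-flox/+), and the 3 Gata2cKO libraries carried the same driver with both alleles floxed (Osr2Cre+;Gata2-flox/flox). The controls thus shared the Cre transgene and were not unmodified animals, and the driver acts in Osr2-expressing mesenchyme while whole tissue, with the region of the mesonephric tubules, was sequenced. The comparison addressed what mesenchymal Gata2, a zinc-finger transcription factor, does in the developing Wolffian duct. The labels do not say whether each library came from a separate embryo or litter, so p-values measure only the spread between these libraries.

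Hox genes encode homeodomain transcription factors that give cells positional identity along the body axis. In mammals they lie in clusters named HoxA to HoxD, with members of like number (paralogs) at like places in each cluster. Low-numbered genes lie at the 3′ end of a cluster and tend to be active further forward in the body, and high-numbered genes lie at the 5′ end and tend to be active further back. The epididymis and the vas deferens form from the Wolffian duct, and Hox genes are known for patterning this duct along its length. Regulatory DNA of Hoxb7 is widely used to drive transgenes in the epithelium of the Wolffian duct and its ureteric bud.

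The 5 genes lie side by side on the plus strand of mouse chromosome 11 (GRCm38, GENCODE release 21 for mouse). Hoxb9 (ENSMUSG00000020875.9) spans chr11:96271457-96276595 and Hoxb8 (ENSMUSG00000056648.5) spans chr11:96281905-96285315. Hoxb7 (ENSMUSG00000038721.8) spans chr11:96286623-96290162, Hoxb6 (ENSMUSG00000000690.5) chr11:96292476-96301569 and Hoxb5 (ENSMUSG00000038700.4) chr11:96303336-96306121. All are annotated as protein-coding. The homeobox, the stretch of 180 bases that encodes the DNA-binding homeodomain, is printed for 1 GENCODE transcript of each of Hoxb6 to Hoxb9 to show how alike the members are in their DNA-binding part. The 18 capital bases encode the invariant stretch of the recognition helix, which contacts DNA.
Hoxb6: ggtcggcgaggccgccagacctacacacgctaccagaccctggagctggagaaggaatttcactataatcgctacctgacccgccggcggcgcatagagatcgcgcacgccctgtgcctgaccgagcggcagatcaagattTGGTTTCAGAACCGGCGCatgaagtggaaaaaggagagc
Hoxb7: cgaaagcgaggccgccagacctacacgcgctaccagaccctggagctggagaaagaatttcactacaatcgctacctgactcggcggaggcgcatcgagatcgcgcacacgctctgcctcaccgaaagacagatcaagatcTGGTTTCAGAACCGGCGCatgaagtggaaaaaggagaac
Hoxb8: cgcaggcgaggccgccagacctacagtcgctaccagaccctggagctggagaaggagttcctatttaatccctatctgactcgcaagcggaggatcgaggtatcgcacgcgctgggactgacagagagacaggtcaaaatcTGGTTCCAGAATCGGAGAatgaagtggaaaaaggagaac
Hoxb9: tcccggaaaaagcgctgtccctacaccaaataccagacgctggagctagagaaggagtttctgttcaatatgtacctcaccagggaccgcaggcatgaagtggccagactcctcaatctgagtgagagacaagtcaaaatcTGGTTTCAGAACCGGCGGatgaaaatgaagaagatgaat

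The homeoboxes of Hoxb6 and Hoxb7 were the most alike pair of these 4, with 88.9% identical bases and a longest identical run of 37 bases. That of Hoxb8 matched Hoxb6 and Hoxb7 at 80.6% of bases each. Hoxb9 stood furthest off, at 61.7% to 64.4% against the other 3. Because short reads from such stretches can fit more than 1 gene, the share of 31-base words of each gene's transcripts that also occurred in transcripts of other genes was counted. On the same strand it was 1.21% for Hoxb6, 0.782% for Hoxb9, 0.661% for Hoxb7, 0.0743% for Hoxb8 and 0.0359% for Hoxb5. On the opposite strand it was highest for Hoxb5, at 2.51%, where the antisense RNA Hoxb5os overlaps the gene. The sources used here do not say whether the libraries marked strand. Reads from the stretch that Hoxb5 shares with its antisense partner therefore cannot be told apart.

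Gene levels were deposited as TPM, an abundance scaled for transcript length and library total, so levels of different genes can be set side by side while the read depth of the libraries remains unknown. The 6 libraries held between 12122 and 12301 genes at 1 TPM or more. Mitochondrially encoded genes took 14.2% to 21.9% of TPM in the controls and 13.2% to 15.2% in the Gata2cKO libraries. Correlations of log2 values across genes were 0.985 to 0.996 among controls, 0.994 to 0.995 among Gata2cKO libraries and 0.978 to 0.989 between the groups. Gata2 itself was listed at 384, 464 and 546 TPM in controls, and the Gata2cKO libraries held 431, 530 and 416 TPM (log2 fold change -0.01, adjusted p = 0.968, limma). A level over the whole gene need not report on the floxed part, so it does not check the genotype labels. Osr2, the gene of the Cre driver, was at 204, 267 and 312 TPM in the controls and fell to 126, 136 and 118 TPM (adjusted p = 0.0136, limma).

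All 5 HoxB genes were well above the median of the tissue. Averaged over the 6 libraries, Hoxb8 stood at the 92.0th percentile of the 12300 genes tested and the other members at the 75.4th (Hoxb6) to the 83.8th (Hoxb7). Among the 35 Hox genes with values, Hoxb8 ranked 6 by mean level, Hoxb7 11, Hoxb9 12, Hoxb5 13 and Hoxb6 18. The 5 genes together gave 329, 312 and 353 TPM in the controls, against 327, 406 and 364 TPM in the Gata2cKO libraries. These sums overlap.

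The direction of the mean difference went with place in the cluster, which was read from these values and was not tested. Hoxb5 and Hoxb6, which lie toward the 3′ end, were lower in every Gata2cKO library than in every control. Hoxb8 was higher in every Gata2cKO library, and Hoxb7 and Hoxb9 had higher means with overlapping groups. None of the 5 passed the threshold over all genes tested (limma on log2 values, Benjamini-Hochberg adjusted p under 0.05), which 7.47% of the 12300 genes did. By the unadjusted limma p under 0.05, 4 of the 5 were past it, as were 27.4% of genes tested. Groups that did not overlap were found for 2 of the 5 genes on the lower side, where 10.5% of genes tested stood, and for 1 of the 5 on the higher side, where 23.4% stood. In the authors' deposited table, 2 of the 5 were past an adjusted p of 0.05 on the lower side, against 6.58% of its genes, and 0 on the higher side. Of the 12300 genes tested here, 870 were past that value on the lower side and 861 on the higher side.

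Hoxb5, which takes part in the formation of the lung and of the enteric nervous system in mice, was at 58.9, 57.8 and 59.97 TPM in the controls, against 40.6, 50.9 and 44.6 TPM in the Gata2cKO libraries. The controls lay close together, the Gata2cKO libraries spread more widely below them, and a gap of 6.82 TPM separated the groups. The means were 58.9 ± 1.10 and 45.4 ± 5.23 TPM (mean ± SD, n = 3 per group), a difference of -23.0%. On the log2(TPM + 1) scale the fold change was -0.38 (SE 0.10, 95% interval -0.60 to -0.15), and it missed the threshold (adjusted p = 0.0566, limma). The authors' deposited table gives -0.44 with an adjusted p of 0.0384 for Hoxb5, on the other side of that threshold. It also passed here when the libraries were rescaled by median-of-ratios (adjusted p = 0.0275, limma) and was at 0.193 without Gata2cKO replicate 1. The exact two-sided permutation test of the log2(TPM + 1) values gave p = 0.1, the smallest that 3 against 3 allows.

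Hoxb6, a gene active in posterior lateral plate mesoderm, was at 46.8, 42.8 and 44.3 TPM in the controls, against 30.2, 42.4 and 34.9 TPM in the Gata2cKO libraries. Gata2cKO replicate 2 came within 0.482 TPM of the lowest control, and the groups did not overlap. The means were 44.7 ± 2.02 and 35.8 ± 6.11 TPM (mean ± SD, n = 3 per group). The log2 fold change was -0.32 (SE 0.12, 95% interval -0.61 to -0.04, adjusted p = 0.143, limma). The authors' deposited table lists Hoxb6 at -0.38 with an adjusted p of 0.0359.

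Hoxb7 was at 53.6, 52.1 and 69.4 TPM in the controls, against 66.5, 75.9 and 71.2 TPM in the Gata2cKO libraries. Control replicate 3 stood above the other controls and above Gata2cKO replicate 1, so the groups overlapped. The means were 58.3 ± 9.59 and 71.2 ± 4.72 TPM (mean ± SD, n = 3 per group), with a log2 fold change of 0.29 (SE 0.12, 95% interval 0.01 to 0.58, adjusted p = 0.170, limma).

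Hoxb8, which in mice is known for its role in blood progenitors and in the microglial lineage, had the highest level of the 5 in every library. It was at 107, 112 and 125 TPM in the controls, against 129, 164 and 151 TPM in the Gata2cKO libraries. The groups did not overlap, with 3.66 TPM between the highest control and the lowest Gata2cKO library. The mean was 115 ± 9.41 TPM in the controls and 148 ± 17.9 TPM in the Gata2cKO libraries (mean ± SD, n = 3 per group), a ratio of 1.29. The log2 fold change was 0.36 (SE 0.11, 95% interval 0.10 to 0.62, adjusted p = 0.0870, limma), and the authors' deposited table gives 0.30 with an adjusted p of 0.0865 for Hoxb8.

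Hoxb9, which patterns the thoracic skeleton in mice together with its paralogs, was at 62.8, 47.6 and 54.1 TPM in the controls, against 60.8, 73.0 and 62.3 TPM in the Gata2cKO libraries. Control replicate 1 lay above 2 of the Gata2cKO libraries, so the groups overlapped. The means were 54.8 ± 7.63 and 65.4 ± 6.65 TPM (mean ± SD, n = 3 per group), with a log2 fold change of 0.25 (SE 0.12, 95% interval -0.03 to 0.54, adjusted p = 0.223, limma). The authors' deposited table lists Hoxb7 at 0.22 (adjusted p = 0.353) and Hoxb9 at 0.20 (adjusted p = 0.378). In bulk tissue, fewer cells of a type and less RNA of a gene per cell cannot be told apart, and this holds for every value given here.

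**Figure D1:**
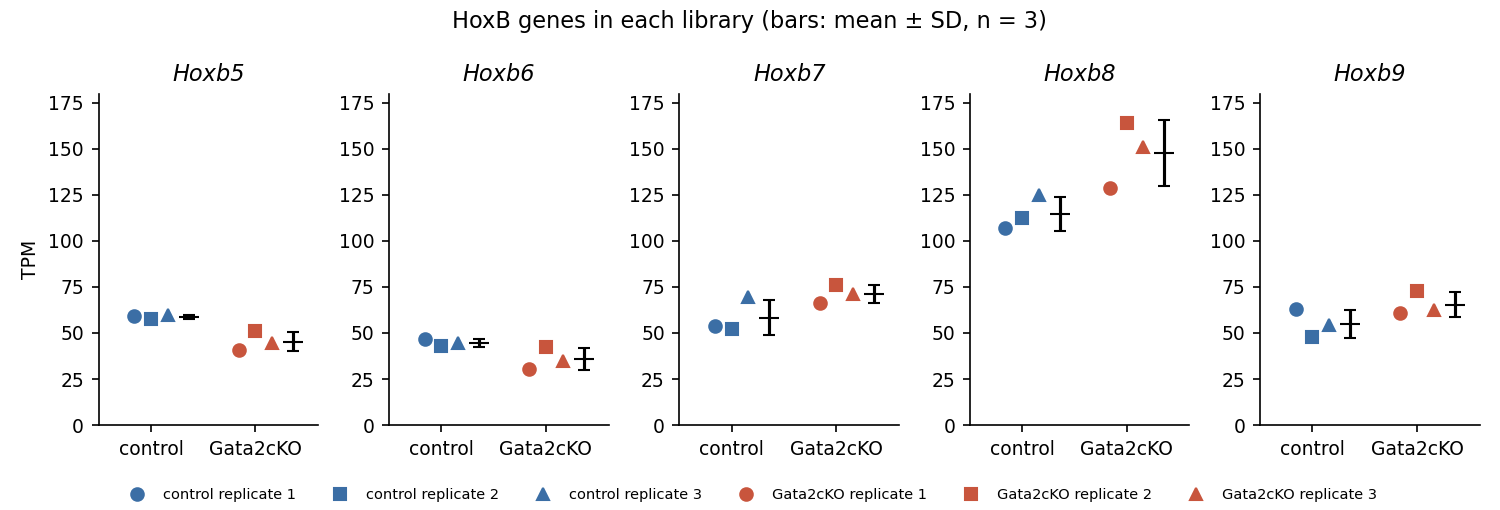
TPM (linear axis from 0) of Hoxb5 to Hoxb9 in the 3 control and 3 Gata2cKO libraries, each point 1 library, with the group mean and SD. Hoxb5 and Hoxb6 have every Gata2cKO library below every control, Hoxb8 every Gata2cKO library above, and Hoxb7 and Hoxb9 overlap.

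The order of the 5 levels differed between the groups. By mean TPM it ran Hoxb8, Hoxb5, Hoxb7, Hoxb9, Hoxb6 in the controls and Hoxb8, Hoxb7, Hoxb9, Hoxb5, Hoxb6 in the Gata2cKO libraries. In the controls the ranges of Hoxb5 and Hoxb7 overlapped, as did those of Hoxb7 and Hoxb9, so these neighbours do not differ beyond their spread. The lowest Hoxb8 value (107 TPM) lay above the highest Hoxb5 value (59.97 TPM), and the lowest Hoxb9 value (47.6 TPM) just above the highest Hoxb6 value (46.8 TPM). The 3 controls each had a different order among Hoxb5, Hoxb7 and Hoxb9, with Hoxb8 first and Hoxb6 last in each, while the 3 Gata2cKO libraries shared 1 order. In the Gata2cKO libraries Hoxb8 stood apart from Hoxb7, and Hoxb9 (lowest 60.8 TPM) from Hoxb5 (highest 50.9 TPM), while Hoxb7 with Hoxb9 and Hoxb5 with Hoxb6 overlapped.

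Ratios of members within a library do not depend on how the libraries were scaled. The ratio of Hoxb8 to Hoxb5 was 1.81, 1.94 and 2.09 in the controls and 3.17, 3.22 and 3.39 in the Gata2cKO libraries, 1.95 ± 0.137 against 3.26 ± 0.113 (mean ± SD, n = 3 per group). The groups did not overlap. Hoxb7 over Hoxb5 ranged from 0.901 to 1.16 in the controls and from 1.49 to 1.64 in the Gata2cKO libraries. Hoxb9 over Hoxb5 ranged from 0.824 to 1.07 and from 1.40 to 1.499 in the same order of groups, again without overlap.

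Hoxb6 as the denominator gave the same separation. The ratio of Hoxb8 to Hoxb6 was 2.28 to 2.82 in the controls and 3.87 to 4.32 in the Gata2cKO libraries, that of Hoxb7 to Hoxb6 1.14 to 1.57 and 1.79 to 2.20, and that of Hoxb9 to Hoxb6 1.11 to 1.34 and 1.72 to 2.01. Of the 10 ratios that 5 genes allow, the 6 that set Hoxb7, Hoxb8 or Hoxb9 over Hoxb5 or Hoxb6 did not overlap between the groups, and the other 4 did. Hoxb6 over Hoxb5 was 0.739 to 0.794 in the controls and 0.745 to 0.831 in the Gata2cKO libraries, and Hoxb8 over Hoxb7 was 1.80 to 2.16 and 1.94 to 2.16. The division of the genes into these 2 sets was read from the values, so these ratios describe it and carry no test. The 6 ratios reuse the same 5 genes and are not separate observations. How often ratios of unrelated genes separate was not counted. Hoxb8 took 34.6% of the summed TPM of the 5 genes in the controls and 40.4% in the Gata2cKO libraries, and Hoxb5 took 17.8% and 12.4%.

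**Figure D2:**
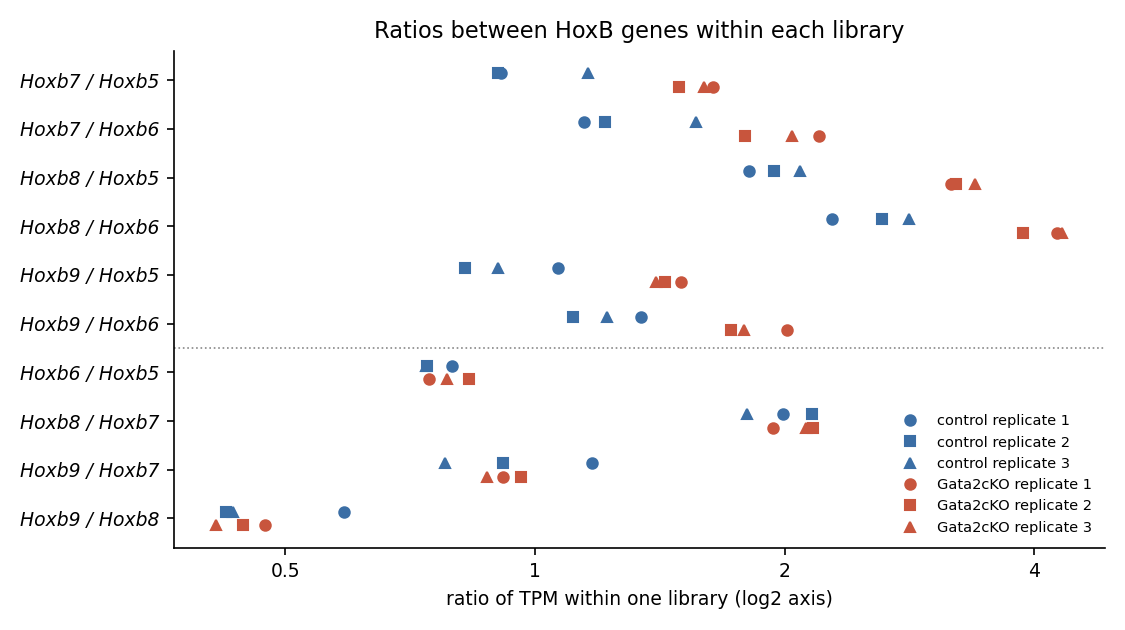
Within-library ratios of TPM for the 10 pairs of HoxB genes (log axis), each point 1 library. The 6 ratios of Hoxb7, Hoxb8 or Hoxb9 to Hoxb5 or Hoxb6 are higher in every Gata2cKO library than in every control, and the other 4 overlap.

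The remaining HoxB genes also had lower means in the Gata2cKO libraries, and the groups of Hoxb3 and Hoxb2 overlapped. Hoxb4, the gene next to Hoxb5 on its 3′ side and known for its part in the self-renewal of blood stem cells, was at 82.5, 87.7 and 83.7 TPM in the controls and fell to 52.5, 66.8 and 62.3 TPM in the Gata2cKO libraries. The groups did not overlap. The means were 84.6 ± 2.72 and 60.5 ± 7.29 TPM (mean ± SD, n = 3 per group), with a log2 fold change of -0.48 (SE 0.10, adjusted p = 0.0330, limma). Hoxb4 was the only one of the 8 HoxB genes with values to pass the threshold, and it stayed past it in 1 of 6 removals of a library, that of control replicate 1, with an adjusted p of up to 0.113 without Gata2cKO replicate 1.

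Hoxb3 (8.0002 ± 0.0245 and 6.73 ± 1.73 TPM, log2 fold change -0.24, adjusted p = 0.333, limma) and Hoxb2 (9.94 and 9.06 TPM, log2 fold change -0.16, adjusted p = 0.703, limma) were low and did not pass. Measured from the start of Hoxb9, the genes start at 10.448 kb (Hoxb8), 15.166 kb (Hoxb7), 21.019 kb (Hoxb6), 31.879 kb (Hoxb5), 46.810 kb (Hoxb4), 51.869 kb (Hoxb3) and 79.068 kb (Hoxb2). The sign of the log2 fold change turned once along this row, between Hoxb7 and Hoxb6, except that Hoxb2 stood at 0.07 without Gata2cKO replicate 1. The median of all genes tested was 0.05 on the same scale. Hoxb1 and Hoxb13 were not analysed here.

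**Figure D3:**
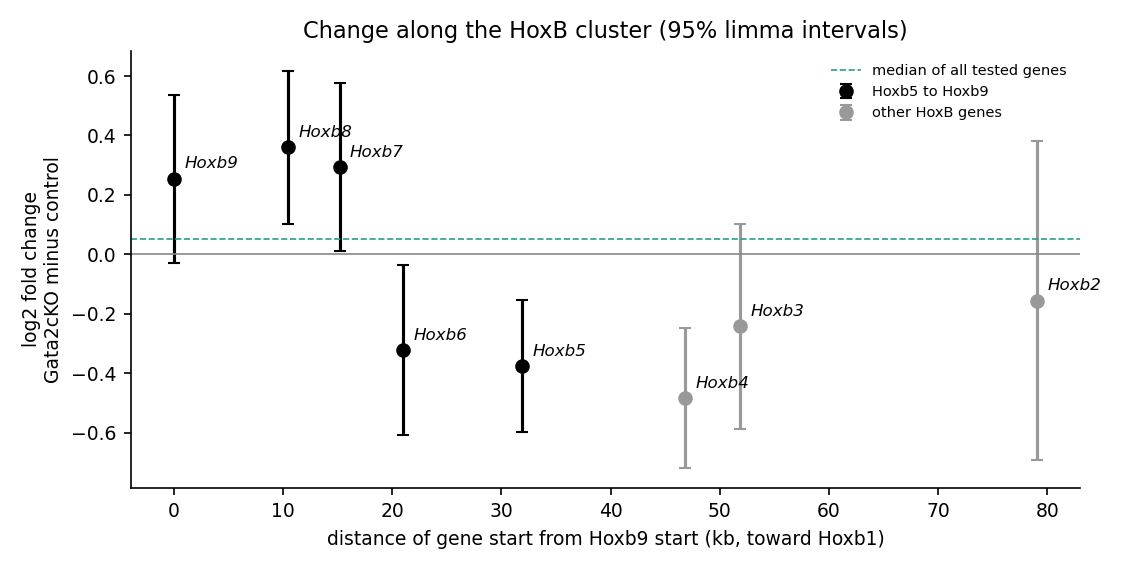
Log2 fold change (Gata2cKO minus control, log2(TPM + 1) scale, limma, bars 95% interval) of the 8 HoxB genes against the distance in kb of each gene's start from that of Hoxb9, along the direction of transcription. Hoxb9, Hoxb8 and Hoxb7 lie above 0 and Hoxb6 to Hoxb2 below it, and the intervals of Hoxb9, Hoxb3 and Hoxb2 cross 0.

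Genes around the cluster were read next. Of 18 protein-coding genes annotated within 500 kb on either side of the cluster from Hoxb13 to Hoxb1, 10 were tested and 0 passed (limma), with 2 at an unadjusted p under 0.05. In the authors' deposited table, 2 of the 13 of these genes with values were past an adjusted p of 0.05, 1 of which was too low to be tested here. The nearest tested gene beyond the Hoxb13 end of the cluster was Atp5g1, a subunit of mitochondrial ATP synthase, 118.646 kb from that end, at 133 ± 3.78 and 136 ± 10.4 TPM (mean ± SD, n = 3 per group, adjusted p = 0.828, limma). The nearest beyond the Hoxb1 end was Snx11, a sorting nexin, 399.299 kb from that end, at 13.1 and 11.8 TPM (adjusted p = 0.481, limma).

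The only member with an entry among the promoter sequences from RefSeq used here (GRCm38.p6) was Hoxb8. Its promoter, chr11:96281655-96281954 on the plus strand, is printed because Gata2 is the deleted factor, and it was searched on both strands for 4 words that GATA factors are known to bind. The first was AGATAA, with its variant of the same length spelled AGATAG. The other was TGATAA, with a variant that ends differently, spelled TGATAG. The 300 bases run from 250 before the annotated start to 50 after it, and capitals mark the single match, TTATCA, which on the opposite strand spells out the word TGATAA.
Hoxb8 promoter: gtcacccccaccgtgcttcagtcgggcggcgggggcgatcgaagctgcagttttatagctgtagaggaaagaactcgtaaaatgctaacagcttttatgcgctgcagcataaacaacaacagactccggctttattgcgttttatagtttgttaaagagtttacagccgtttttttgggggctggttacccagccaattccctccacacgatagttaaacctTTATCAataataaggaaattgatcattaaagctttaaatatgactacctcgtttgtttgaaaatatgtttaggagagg

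The match begins 28 bases before the annotated start of Hoxb8. Of 32851 promoters of the same length, 29.8% hold at least 1 such match, so its presence is common, and no binding of Gata2 was measured.

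Several paralogs of the HoxB genes passed the threshold. Among the 35 Hox genes tested, 13 fell and 1 rose (limma), where 1.74% of all genes tested fell and 5.73% rose, and the median log2 fold change of the Hox genes was -0.30 against 0.05 for all genes. In the HoxA cluster 5 of 11 genes fell, with a median of -0.61, and in the HoxC cluster 6 of 7 fell, with a median of -0.82. In the HoxD cluster 1 of 9 fell and 1 rose, with a median of -0.03. These counts rest on few libraries. Without control replicate 1, 14 Hox genes fell and 2 rose, and leaving out any one of the other 5 libraries left 7 (control replicates 2 or 3, or Gata2cKO replicate 1), 8 (Gata2cKO replicate 3) or 10 (Gata2cKO replicate 2) that fell and 0 that rose. The HoxC cluster gave 6 in each of the 6 removals, and the HoxA cluster 1 to 6. The lists of Hox genes were drawn up with earlier results of these data known, and their counts are a description.

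Hoxc9, the HoxC paralog of Hoxb9, fell from 44.4 ± 1.24 to 17.2 ± 1.81 TPM (mean ± SD, n = 3 per group, log2 fold change -1.32, adjusted p = 0.00173, limma). Hoxa9, the HoxA paralog of Hoxb9, fell from 162 ± 13.99 to 95.7 ± 1.58 TPM (log2 fold change -0.75, adjusted p = 0.00849, limma). These genes of paralog group 9 stayed past the threshold in all 6 removals of a library. Hoxd9 was at 311 TPM in the controls and 303 TPM in the Gata2cKO libraries (log2 fold change -0.03, adjusted p = 0.828, limma), and Hoxb9 itself had a higher mean.

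Hoxc8 fell from 318, 376 and 397 TPM to 140, 199 and 139 TPM (log2 fold change -1.20, adjusted p = 0.0109, limma). Hoxd8 rose from 235 ± 15.3 to 331 ± 13.96 TPM (mean ± SD, n = 3 per group, log2 fold change 0.50, adjusted p = 0.0181, limma), the single Hox gene to do so, and it lost the call in 5 of 6 removals. Hoxc8 was named after its values were seen, for comparison with Hoxb8. The ratio of Hoxb8 to Hoxc8 was 0.336, 0.298 and 0.315 in the controls and 0.923, 0.824 and 1.09 in the Gata2cKO libraries, so the groups did not overlap and the levels of the 2 genes were nearest to each other in the Gata2cKO libraries. The ratio of Hoxb8 to Hoxd8 was 0.423 to 0.550 in the controls and 0.371 to 0.506 in the Gata2cKO libraries, which overlap.

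Among the paralogs of Hoxb5 and Hoxb6, Hoxa5, a regulator of lung and axial skeleton formation in mice, fell from 398 ± 79.5 to 203 ± 37.0 TPM (mean ± SD, n = 3 per group, log2 fold change -0.96, adjusted p = 0.0243, limma). Hoxa6 fell from 71.0 ± 6.49 to 32.0 ± 9.91 TPM (log2 fold change -1.16, adjusted p = 0.0194, limma), and Hoxc6 from 64.8 ± 1.92 to 36.5 ± 3.50 TPM (log2 fold change -0.82, adjusted p = 0.00756, limma). Hoxc5 fell from 10.9 ± 1.10 to 5.84 ± 0.482 TPM (log2 fold change -0.80, adjusted p = 0.0109, limma). Hoxa5 lost its call in 4 of 6 removals of a library and Hoxa6 in 3, while Hoxc5 and Hoxc6 kept theirs in all 6. The log2 fold changes of Hoxb5 (-0.38) and Hoxb6 (-0.32) lay nearer to 0 than those of Hoxa5, Hoxc5, Hoxa6 and Hoxc6.

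Genes of paralog group 4 and Hoxd10 complete the named Hox genes. Hoxa4 fell from 53.6 ± 14.6 to 21.7 ± 6.27 TPM (mean ± SD, n = 3 per group, log2 fold change -1.27, adjusted p = 0.0278, limma), with the call lost in 4 of 6 removals. Hoxc4 fell from 33.4 ± 5.03 to 16.5 ± 0.646 TPM (log2 fold change -0.96, adjusted p = 0.00971, limma). Hoxd10 fell from 117 ± 9.84 to 87.9 ± 7.16 TPM (log2 fold change -0.41, adjusted p = 0.0466, limma) and lost the call in 5 of 6 removals.

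**Figure D4:**
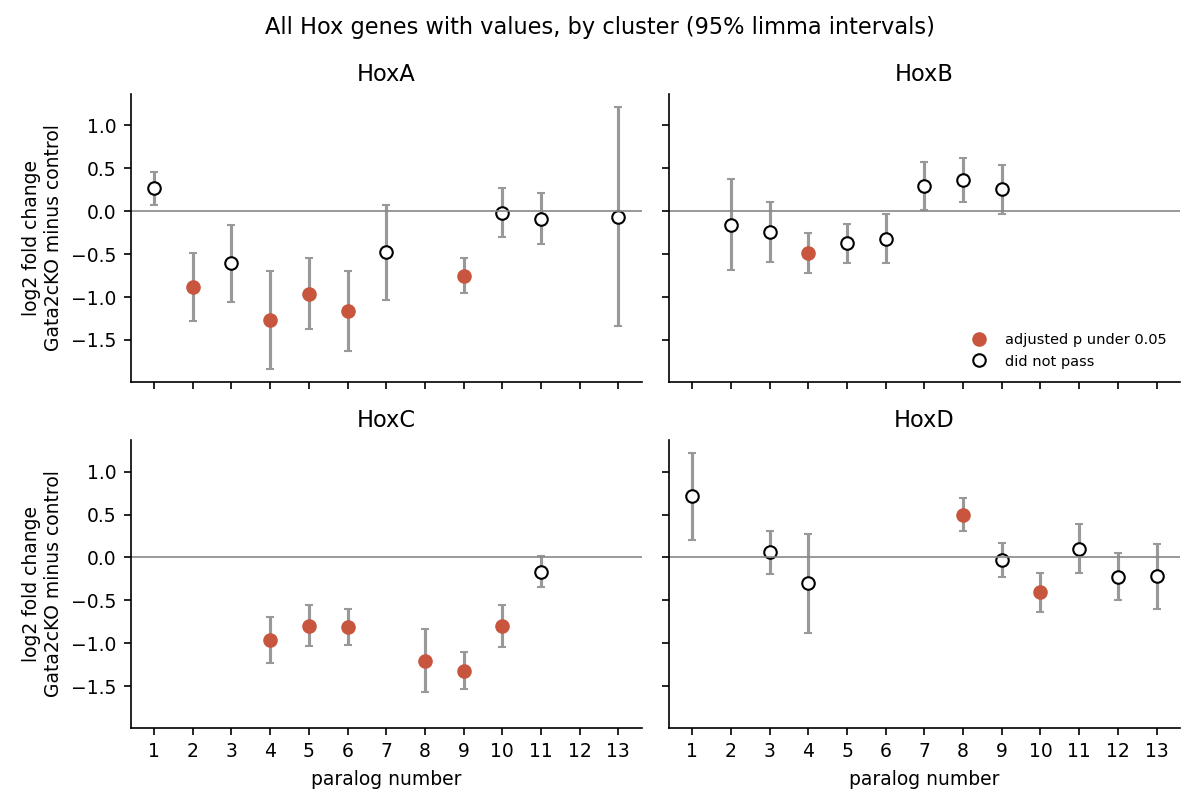
Log2 fold change (Gata2cKO minus control, log2(TPM + 1) scale, limma) of the 35 Hox genes by paralog number and cluster, each point 1 gene, with genes past the threshold marked. HoxA and HoxC hold 11 of the 13 genes that fell, and none of Hoxb5 to Hoxb9 is past the threshold.

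The level of each HoxB gene was set against those of its paralogs within each library. Of 10 ratios of a HoxB gene to a paralog, 9 had a higher mean in the Gata2cKO libraries and 8 did not overlap between the groups. For each of these 8 the exact two-sided permutation test gave p = 0.1, the smallest possible with 3 against 3, or 0.125 adjusted over the 10 ratios. A ratio shows unequal change of its 2 genes and not which of them moved. Of the denominators of these 8 ratios, all but Hoxa7 had themselves passed the threshold as lower in the same libraries. Their separation is therefore no independent support, and how often ratios of unrelated genes separate was not counted. Hoxb9 over Hoxc9 was 1.08 to 1.45 in the controls and 3.29 to 4.19 in the Gata2cKO libraries. Hoxb7 over Hoxa7 was 1.001 to 1.38 and 1.57 to 2.49, and Hoxb9 over Hoxd9 overlapped (exact permutation p = 0.3, adjusted 0.333).

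As a share of the summed TPM of its own paralog group, Hoxb5 was at 12.8 ± 2.24% in the controls and 17.96 ± 0.908% in the Gata2cKO libraries (mean ± SD, n = 3 per group). Hoxb6 was at 24.8 ± 1.52% and 34.4 ± 2.03%, and Hoxb7 at 53.3 ± 4.16% and 66.3 ± 5.15%. Hoxb8 was at 16.1 ± 0.541% and 23.1 ± 1.98%, and Hoxb9 at 9.61 ± 1.58% and 13.6 ± 1.05%. The groups did not overlap for any of the 5 genes, including Hoxb5 and Hoxb6, whose own levels were lower in the Gata2cKO libraries. The shares use the paralogs of the ratios above, most of which fell, so their separation is likewise no independent support. How often shares of unrelated genes separate was not counted. The 5 genes together made up 12.3%, 10.8% and 11.4% of all Hox TPM in the controls and 15.1%, 16.4% and 16.98% in the Gata2cKO libraries. The summed TPM of the 35 Hox genes was 2679, 2886 and 3104 in the controls and 2169, 2478 and 2144 in the Gata2cKO libraries.

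**Figure D5:**
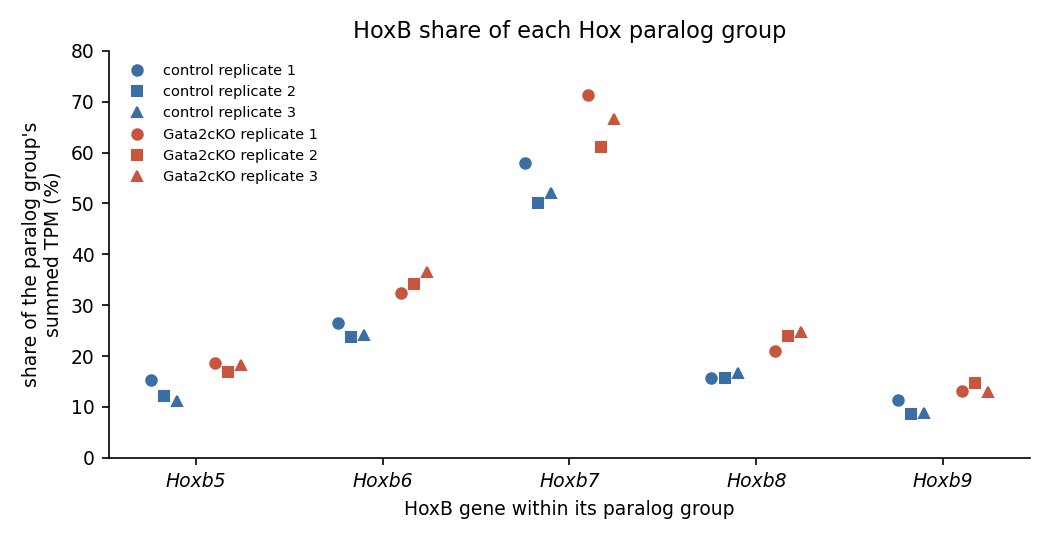
Share (percent) of the summed TPM of each paralog group that came from its HoxB gene, each point 1 library. For all 5 genes every Gata2cKO library lies above every control, with most paralogs in the denominators called lower in the same libraries.

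Hox proteins bind DNA together with TALE homeodomain cofactors of the Pbx, Meis and Prep families. Of 9 such genes tested, 0 passed the threshold (limma), with 4 at an unadjusted p under 0.05, and the authors' deposited table lists 3 of them as lower. All 9 had negative log2 fold changes, as did 4979 of the 12300 genes tested, and their median was -0.25. With array weights, without control replicate 3 or without Gata2cKO replicate 2, 8 of 9 were negative. Without control replicate 1, 2 of them fell, and under median-of-ratios scaling 1 did. Meis2, the one with the smallest p, was at 12.9 ± 0.225 TPM in the controls and 10.4 ± 1.02 TPM in the Gata2cKO libraries (mean ± SD, n = 3 per group, log2 fold change -0.29, adjusted p = 0.0938, limma), and its groups did not overlap.

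Regulators known to act on Hox clusters, mainly genes of retinoic acid synthesis and signalling and the Cdx factors, gave 1 rise and 0 falls among 10 tested of 14 listed. Aldh1a3, an enzyme that makes retinoic acid, rose from 7.37 ± 1.38 to 12.98 ± 0.748 TPM (mean ± SD, n = 3 per group, log2 fold change 0.75, adjusted p = 0.0178, limma). The median over the 10 genes was 0.22, and 0 genes of the list passed when any library other than control replicate 1 was left out. Cdx1, Cdx2, Cdx4 and Cyp26a1 were not analysed here.

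Polycomb and Trithorax proteins keep Hox genes silent or active through histone marks. Of 22 genes tested for them, 0 passed in either direction (limma), with 3 at an unadjusted p under 0.05 and 4 listed as lower in the authors' deposited table. The median log2 fold change was -0.09. Kdm6b, a demethylase that removes the Polycomb mark, had the smallest p, at 84.6 ± 7.83 TPM in the controls and 63.6 ± 11.3 TPM in the Gata2cKO libraries (mean ± SD, n = 3 per group, log2 fold change -0.42, adjusted p = 0.0991, limma).

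The genes whose profile over the 6 libraries was most like that of each HoxB gene were found by the root mean square difference of centred log2(TPM + 1) values, among 11906 tested genes of standard symbol. For Hoxb5 these were Lmbr1l (0.0291), Nrsn2 (0.0363) and Taf4 (0.0399), and for Hoxb6 Arhgap39 (0.0429), Cdk5r1 (0.04996) and Taf4 (0.0514). For Hoxb7 they were Klhdc3 (0.0573), Kctd17 (0.0611) and Khk (0.0616). For Hoxb8 they were Crip2 (0.0289), Atg4d (0.0437) and Tradd (0.0443), and for Hoxb9 Myo6 (0.0353), Plek2 (0.0477) and Cds2 (0.0482).

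Between members the same measure was 0.0611 for Hoxb5 with Hoxb6 and 0.0942 for Hoxb7 with Hoxb8. It was larger for Hoxb9, at 0.174 with Hoxb7 and 0.169 with Hoxb8. It was 0.305 to 0.374 between either of Hoxb5 and Hoxb6 and any of Hoxb7, Hoxb8 and Hoxb9. Counted over all 12300 genes tested, Hoxb5 was thus number 13 among the genes nearest to Hoxb6. Likewise, Hoxb6 was number 30 among those nearest to Hoxb5, and Hoxb8 number 86 among those nearest to Hoxb7. Hoxb9 was only number 2760 for Hoxb7 and number 2420 for Hoxb8. With 6 libraries in 2 groups, many genes have like profiles.

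Markers of several cell types moved with the groups and were read beside the HoxB genes. Of 15 tested markers of Wolffian duct epithelium, where Hoxb7 regulatory DNA is active, 5 rose and 0 fell. Their summed level was 1150 to 1289 TPM in the controls and 1503 to 1543 TPM in the Gata2cKO libraries, without overlap. Epcam, an adhesion molecule of epithelia, rose from 74.1 ± 5.20 to 102 ± 4.40 TPM (mean ± SD, n = 3 per group, adjusted p = 0.0233, limma), and the tight-junction gene Cldn4 from 160.5 ± 6.40 to 243 ± 13.4 TPM (adjusted p = 0.0113, limma). Krt18, the most abundant of the list, was at 321 and 349 TPM (adjusted p = 0.378, limma).

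Of 15 mesenchymal markers, 5 fell and 1 rose, with summed levels that overlapped (7620 to 9419 TPM in the controls, 8365 to 10401 TPM in the Gata2cKO libraries). The list did not move as a whole. Log2 fold changes were positive for 10 of the 15 and negative for 5, with a median of 0.13 (-0.01 without control replicate 1, where 9 were negative). The mesenchymal transcription factors Tcf21 (766 ± 63.2 to 449 ± 15.2 TPM, adjusted p = 0.00856, limma) and Nr2f1 (204 ± 34.0 to 103 ± 15.1 TPM, adjusted p = 0.0156, limma) fell. Col1a1, the collagen that is the most abundant of the list, was at 4045 and 4458 TPM (adjusted p = 0.674, limma). Of 6 smooth muscle markers 2 fell, Acta2 among them (315 ± 50.6 to 196 ± 11.9 TPM, adjusted p = 0.0230, limma), and their summed level was 653 to 727 and 540 to 593 TPM.

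Markers of other tissues also moved. Of 7 mesothelial markers 5 rose, and their sum was 396 to 503 TPM in the controls and 636 to 730 TPM in the Gata2cKO libraries. Krt19 (log2 fold change 0.54, adjusted p = 0.0439, limma) is in this list and in that of duct epithelium, so these lists are not separate. Of 9 endothelial markers 3 rose (sums 323 to 424 and 459 to 557 TPM), and of 7 mast cell markers 3 rose (103 to 150 and 287 to 310 TPM), the protease Tpsb2 from 68.8 ± 9.45 to 169 ± 5.10 TPM (adjusted p = 0.00261, limma). All 3 tested markers of renal tubules and nephron progenitors, of 12 listed, rose (58.6 to 64.9 and 107 to 113 TPM), and Podxl, which is also made by endothelium and mesothelium, was the most abundant. One marker rose among 7 of erythroid cells, 7 of macrophages and 5 of neurons and glia each, and their sums overlapped. The erythroid sum was 18280, 6864 and 7812 TPM in the controls and 10521 to 13830 TPM in the Gata2cKO libraries, so it overlapped through control replicate 1 alone, and 5 of the 7 erythroid markers rose without that library and 0 without any other. No marker of the gonad (4 tested of 10) or of skeletal muscle (1 tested of 5) passed, and 0 of these had an unadjusted p under 0.05. Marker calls moved with single libraries. Without Gata2cKO replicate 1 the genes that rose numbered 0 for duct epithelium, 1 for mesothelium, 0 for endothelium and 2 for mast cells, and without control replicate 1 they numbered 9, 5, 4 and 6. Mesenchymal markers that fell numbered 1 without Gata2cKO replicate 1 or 3, 2 without control replicate 2, 3 without control replicate 3 or Gata2cKO replicate 2 and 5 without control replicate 1. The part of these cell types in the HoxB values was not tested.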

How the data were processed

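Poly(A)-selected RNA of mesonephroi was sequenced, per the labels' protocols. The authors deposited 1 value per gene and library, taken here to be TPM because each library summed to between 997351 and 998844 and no whole-read steps were seen among low values, so count tests planned for counts were not run and depth is unknown. The authors also deposited a log2 fold change, a p-value and an adjusted p per gene. Per the submitters' processing notes, GRCm38 was the build, and STAR 2.7.11a, DESeq and DESeq2 were used in roles that are not stated. The quantifier is not given in the labels or headers.

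Genes reaching 1 TPM in 3 or more of the 6 libraries (12300) were fitted as log2(TPM + 1) with limma-trend (limma 3.58.1, R 4.3.3), with group as the single term. P-values are two-sided and Benjamini-Hochberg adjusted over all 12300 genes, with a threshold of 0.05. Log2 fold changes are Gata2cKO minus control. Exact permutation tests used scipy 1.17.1. The fit was tested on simulated data with known changes. Positions and homeoboxes came from GENCODE release 21 for mouse, matched by identifier for 14345 of 14366 genes. A planned comparison of homeodomain proteins was replaced by the homeobox DNA, which for Hoxb5 is not reported here.

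The members and the 19 gene lists were chosen with earlier results of these data known. Named genes were the 5 members, all other HoxB genes, Gata2, the nearest tested gene on each side of the cluster, and, of each list, up to 4 genes past the threshold by smallest adjusted p or else the one with the smallest p, with the most abundant member for cell types. For cell-type lists only some of these are named. The 3 nearest profiles of each member were added. Osr2, Hoxd9, Hoxa7 and Hoxc8 were chosen for comparison. Alternatives covered the pseudocount, filter, scaling, variance model, replicate block and removal of each library.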

Additional observations from a re-analysis of the deposited data

How the results depend on the processing

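Over 17 alternatives, all 85 recomputed values of the 5 HoxB genes kept their direction, and 8 were past the threshold. Hoxb5 passed under median-of-ratios scaling (log2 fold change -0.44, adjusted p = 0.0275, limma), upper-quartile scaling (-0.42, adjusted p = 0.0297) and TPM without mitochondrial genes (-0.44, adjusted p = 0.0387), so 1 of 5 members was called there in place of 0. Under these scalings Hoxb6 also moved away from 0 (-0.38 to -0.36). Hoxb7 (0.23 to 0.25), Hoxb8 (0.30 to 0.32) and Hoxb9 (0.19 to 0.21) moved toward 0. Array weights called 4751 genes against 919 and 5 of 5 members (Hoxb5 -0.42, Hoxb6 -0.37, Hoxb7 0.36, Hoxb8 0.30, Hoxb9 0.37). These weights gave control replicate 2 a value of 7.60 and control replicate 1 one of 0.209, so that fit rests largely on 1 control. Removing each library in turn gave 116 calls (without Gata2cKO replicate 1) to 1539 (without control replicate 1) and no call of a member, and log2 fold changes of -0.46 to -0.30 for Hoxb5, -0.45 to -0.21 for Hoxb6, 0.22 to 0.42 for Hoxb7, 0.28 to 0.46 for Hoxb8 and 0.16 to 0.36 for Hoxb9. All calls split into 705 higher and 214 lower as deposited, 487 and 400 under median-of-ratios scaling, 578 and 342 under upper-quartile scaling and 436 and 284 without mitochondrial genes. Same-numbered samples correlated at 0.245, -0.0731 and 0.0385 in their deviations, and differently numbered ones at -0.277 to 0.215. With 3 libraries per group this cannot decide whether the numbers pair them. The replicate block gave 774 calls and 0 members. In the order by level, 2 members held the same place in both groups by means, 3 by medians and 3 with control replicate 3 alone. The cause of these differences was not tested. With TPM alone, counting error could not be separated from replicate spread.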
